A study of Mus musculus with 10 samples.

Results

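The oxidative phosphorylation genes are the 103 genes, of 32285 counted, whose symbols start with Nduf, Uqcr, Cox4, Cox5, Cox6, Cox7, Cox8 or Atp5 (90 nuclear genes) or with mt-Nd, mt-Co, mt-Cytb or mt-Atp (13 genes of the mitochondrial genome). The rule takes members by symbol and uses no measured value. The nuclear members comprised 37 complex I subunits, 8 complex I assembly factors, 8 complex III subunits, 20 complex IV subunits or their paralogs and 17 genes of the ATP synthase. The mitochondrial members comprised 7 complex I subunits, 1 complex III subunit, 3 complex IV subunits and 2 ATP synthase subunits. Of the members, 102, 101 and 100 had at least 1 counted molecule at embryonic days E11.5, E14.5 and E16.5.

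Oxidative phosphorylation takes place in the inner mitochondrial membrane. Complexes I, III and IV pass electrons from NADH to oxygen and pump protons, and the ATP synthase lets the protons flow back to make ATP. Most subunits are encoded in the nucleus and imported, whereas a small core is encoded by mitochondrial DNA. That DNA is transcribed as long precursors that are cut into shorter messages. Both genomes must therefore supply subunits of the same complexes. Several complex IV subunits exist as paired isoforms with tissue-restricted forms, and Cox4i2 and Ndufa4l2 are known as hypoxia-responsive forms.

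The data are 10x Chromium 3' single-cell RNA counts of wild-type NMRI mouse embryos. The tissue was the whole mandible at E11.5 and the bud of the lower incisor at both later stages, E14.5 and E16.5, dissociated with Collagenase P. No agent or mutant allele was used in these libraries. GEO's labels name 4, 4 and 2 samples in order of age, all of developing incisor, but every stage was deposited as 1 pooled matrix with no assignment of barcodes to samples. Each stage was therefore 1 sample, no test between stages or lineages was possible, and stage and library cannot be told apart. The comparison between stages also sets whole mandibles at E11.5 against dissected buds.

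Cells that had 700 or more genes and no more than 20% mitochondrial UMIs numbered 6573, 6091 and 4511 at the 3 stages in order of age, with a median of 5664, 3471 and 6260 unique molecular identifiers (UMIs, each for 1 captured RNA molecule) per cell. The stages shared 9 to 11 barcodes in pairs. Cells were clustered within each stage without the members among the clustering genes, and clusters were named from fixed marker lists. Each named cluster of the main clustering raised 6 to 10 of its 10 listed markers. Mesenchyme-like cells made up 6111, 4616 and 2568 cells, and epithelium-like cells 983 (E14.5) and 1747 (E16.5). No cluster at E11.5 was named epithelium-like. A cluster of 1111 mesenchyme-like cells at E11.5 was shallow, with a median of 1879 UMIs, and values are given with and without it where they rest on it.

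Levels are given as CPM, the UMIs of a gene scaled to a total of 1e6 UMIs in a group of cells, or as the percent of all UMIs that a gene set contributed. A 3' UMI count does not scale with transcript length, so CPM was compared between genes without a length correction. Gene differences are log2 ratios after 10 CPM was added to either level, among genes with a mean of at least 20 CPM over both groups and at least 50 UMIs. A gene past 1.5-fold on this scale is called higher or lower. Intervals are at the 95% level and cover counting error only, not differences between embryos, so they are narrow for abundant genes.

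The promoters of 3 nuclear members that passed 1.5-fold in several of the comparisons described here are shown, because they differ in which known regulatory motif they carry. Each is the 150 bases before the RefSeq transcription start, from RefSeq on GRCm38.p6, written 5′ to 3′ on the strand of the gene. The RefSeq start of Uqcr11 lies a few bases inside the annotated gene. Capitals mark an ETS motif (CCGGAAGT) in Uqcr11 and overlapping NRF1 motifs (GCGCATGC, on both strands) in Ndufaf4, and Cox6b2 held none of the motifs searched.
Uqcr11, chr10:80406822-80406971, minus strand: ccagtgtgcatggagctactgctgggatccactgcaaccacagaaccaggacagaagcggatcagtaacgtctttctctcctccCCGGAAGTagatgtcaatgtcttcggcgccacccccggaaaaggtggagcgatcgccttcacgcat
Ndufaf4, chr4:24897933-24898082, plus strand: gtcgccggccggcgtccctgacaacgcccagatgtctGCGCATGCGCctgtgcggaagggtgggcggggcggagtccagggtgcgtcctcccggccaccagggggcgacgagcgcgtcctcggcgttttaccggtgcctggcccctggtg
Cox6b2, chr7:4753095-4753244, minus strand: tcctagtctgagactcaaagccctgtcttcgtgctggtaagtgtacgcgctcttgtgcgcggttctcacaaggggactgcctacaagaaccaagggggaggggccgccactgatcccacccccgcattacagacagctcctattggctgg
Uqcr11 encodes a small subunit of complex III, Ndufaf4 an assembly factor of complex I and Cox6b2 an isoform of a complex IV subunit known from testis.

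Of the 90 nuclear members, 72 had a promoter in the table. The NRF1 motif, bound by a known activator of respiratory genes, was found on either strand in 6 of the 72 (8.33%), against 2.1% of 27025 promoters of the same length. The 6 were Ndufa6, Ndufa8, Ndufa11, Ndufaf4, Atp5g2 and Atp5k. The ETS motif was found in Uqcrh, Uqcr11 and Atp5h (4.17% against 2.72%), and the YY1 motif (AAGATGGC) in Atp5j (1.39% against 1.02%). The hypoxia response core (ACGTG) was found in 6 (8.33% against 12.6%), which were Ndufa3, Ndufa7, Cox5a, Cox8b, Atp5g1 and Atp5l. Cox4i2 and Ndufa4l2, the forms named above as hypoxia-responsive, had no promoter among the 72 and were not searched. These matches describe letters in the window and not binding.

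Nuclear members contributed a similar share of the RNA in mesenchyme-like cells at all stages, whereas the share of the mitochondrial members was about 2-fold lower at E14.5 than at E11.5. The nuclear set took 2.77%, 2.88% and 3.02% of UMIs from the youngest to the oldest stage, and the mitochondrial set 4.14%, 2.05% and 2.83%. In the same order there were thus 0.669, 1.40 and 1.07 nuclear UMIs for each mitochondrial UMI. Without the shallow cluster, the E11.5 values were 2.79% and 3.85%. The shallow cluster itself held 2.36% nuclear and 8.55% mitochondrial member UMIs.

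The division of the nuclear set among the complexes was close to constant in mesenchyme-like cells. From the youngest to the oldest stage, complex I subunits took 28.5%, 28.1% and 29.7% of its UMIs, complex IV genes 27.6%, 29.1% and 28.6%, and ATP synthase genes 33.6%, 31.9% and 31.0%. Complex III took 8.61%, 9.23% and 9.34%, and the complex I assembly factors, which are not part of the finished enzyme, took 1.67%, 1.66% and 1.34%. The 3 genes that encode the same c subunit of the ATP synthase kept 1 order at all stages. Atp5g2 had 685, 836 and 797 CPM, Atp5g1 396.5, 519 and 457 CPM, and Atp5g3 297, 270.2 and 244 CPM.

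The highest pooled nuclear shares were those of immune-like cells, with 4.58% at E14.5 (135 cells) and 4.83% at E16.5 (26 cells). They rested on few cells, since without the 31 and 5 cells that held 20 or more UMIs of Ctsk and Acp5, osteoclast genes chosen after their values were seen, the shares were 3.62% and 3.56%. The E16.5 value lay above the middle 50% of its cells, 2.995 to 4.41%. A pooled share weights cells by their depth. At E14.5 Spearman's correlation of the nuclear share with the UMIs of a cell was 0.349 in immune-like cells. It was 0.194 in mesenchyme-like and 0.105 in epithelium-like cells of that stage. The part of the weighting by depth was not tested. Pericyte-like cells of E16.5 had 3.90% (26 cells), above the immune-like cells without those cells, and the median over single cells was 3.797% in pericyte-like and 3.70% and 3.74% in immune-like cells. Epithelium-like cells had 3.21% at E14.5 and 3.43% at E16.5. At E14.5 endothelium-like cells had 3.16% and glia-like cells 2.71% (46 cells). The intervals of E14.5 epithelium-like and E16.5 endothelium-like cells (3.20%) overlapped, so these neighbours in the order were not told apart.

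Erythroid-like cells had the lowest nuclear shares, 2.10% at E11.5 and 1.94% at E14.5. Hemoglobin messages took 32.8% and 37.4% of their UMIs, against 0.130% and 0.0973% in mesenchyme-like cells of these stages. With hemoglobin left out of the total, the nuclear shares of the erythroid-like cells were 3.13% and 3.11%. A group of 44 cells at E16.5 in which hemoglobin took 40.5% of UMIs had 1.99% before and 3.33% after leaving it out. Without hemoglobin these cells were above the mesenchyme-like cells of their stage. The erythroid-like cluster of E14.5 also raised 9 of 10 mesenchyme markers, whose part was not tested.

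The mitochondrial set was ordered differently. The 3 named lineages of E11.5 lay between 3.39% (erythroid-like) and 4.14% (mesenchyme-like), with muscle-like cells at 4.05%. With hemoglobin left out of the total, erythroid-like cells were the highest of them, at 5.05%. At E14.5 the named lineages ranged from 1.37% in erythroid-like cells to 2.96% in epithelium-like cells. Without hemoglobin the erythroid-like cells had 2.18%, above the mesenchyme-like cells. Epithelium-like cells were also the highest named lineage at E16.5, at 3.75%, and immune-like cells had 2.46% and 3.23%. The plot of both sets by lineage and stage shows these values.

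**Figure D1:**
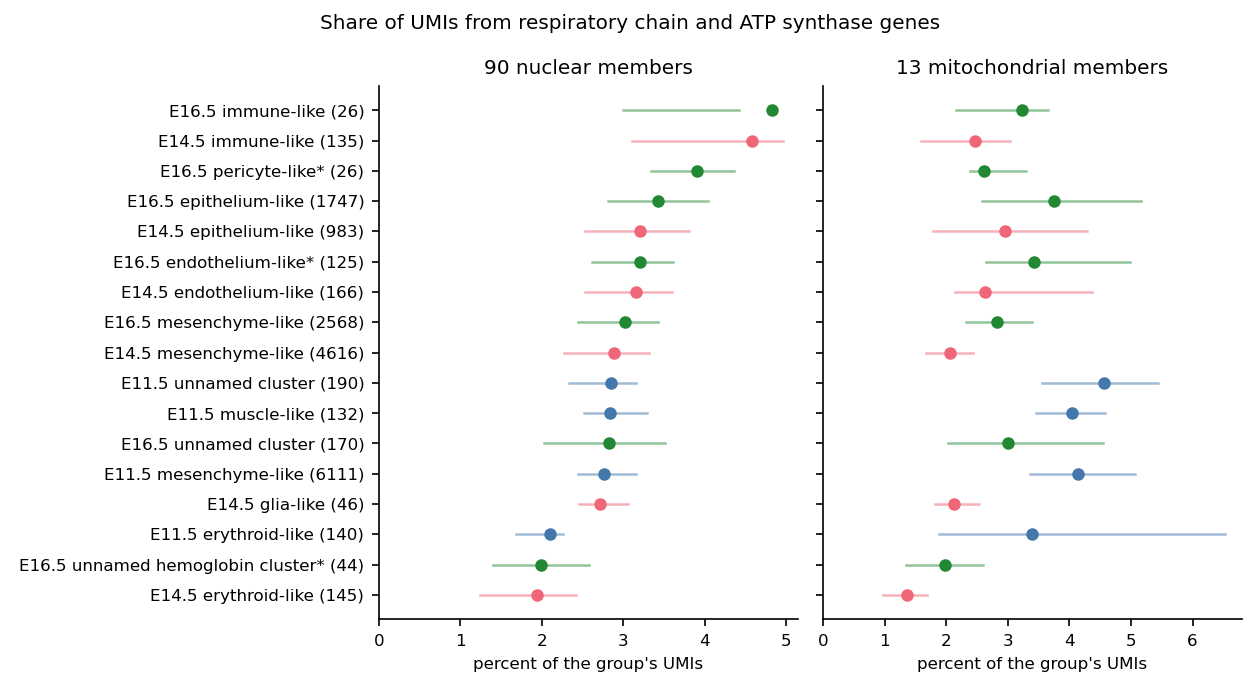
Percent of all UMIs from the nuclear (90 genes) and the mitochondrial members (13 genes) in 17 groups of cells. Points are values pooled over the cells of a group, lines span the middle 50% of its cells, numbers are cells, and an asterisk marks clusters taken at the finer resolution. The pooled nuclear share is highest in immune-like cells, where 31 of 135 and 5 of 26 cells carry it above that of pericyte-like cells, and the E14.5 groups are lower than those of E11.5 for the mitochondrial set.

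Between E11.5 and E14.5 the nuclear and the mitochondrial members of mesenchyme-like cells differed in their ratios. The nuclear set had a log2 ratio of 0.058 (interval 0.053 to 0.062), against -1.01 (-1.015 to -1.005) for the mitochondrial set. Of the 80 nuclear members that passed the filter, 0 were past 1.5-fold in either direction, against 22.8% of 5579 genes. All 13 mitochondrial members were past 1.5-fold lower, beside 811 of the 5579 genes. The median of the nuclear members was 0.043, beside -0.17 over all genes. Without the shallow cluster the ratios were 0.044 and -0.91.

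The ratios of the mitochondrial members differed in size. The complex I subunit gene mt-Nd3 (M:9459-9806) had 1907 CPM at E11.5 and 271 CPM at E14.5, a log2 ratio of -2.77. Its neighbour mt-Nd4l (M:9877-10173) had 1050 and 329 CPM, a ratio of -1.64. These were the lowest ratios of the 13 members. The gene mt-Nd4l overlaps mt-Nd4 by 7 bases, so a read there fits both genes. Whether the counts of this pair come from separate messages was not tested, so their ratios may not be those of separate RNAs. The cytochrome oxidase genes mt-Co1, mt-Co2 and mt-Co3, which encode the catalytic core of complex IV, had ratios of -0.89, -1.17 and -0.91. The ATP synthase genes mt-Atp6 and mt-Atp8 had -1.19 and -0.99. The cytochrome b gene mt-Cytb, at 3946 and 2424 CPM, had -0.70. The ratio nearest to 0 was that of mt-Nd4, at 2518 and 1652 CPM (-0.60). Without the shallow cluster mt-Nd4 had -0.51, so that 12 of the 13 remained past 1.5-fold. In cells of 4000 to 8000 UMIs mt-Nd1 had -0.54, while its ratio over all cells was -0.71.

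Among the nuclear members of this step, the differences were small and went both ways, with 44 of 80 (55.0%) above 0, beside 34.6% of 5579 genes. Ndufb2, an accessory subunit of complex I that overlaps another protein-coding gene model on its strand, had 136 CPM at E11.5 and 205 CPM at E14.5 (0.56). Ndufa5, a complex I subunit, had 192 and 264 CPM (0.44), and Uqcrh, the hinge subunit of complex III, had 587 and 799 CPM (0.44). On the lower side, Atp5k, subunit e of the ATP synthase, had 960.3 and 680.5 CPM (-0.49). Uqcrfs1, the Rieske iron-sulfur subunit of complex III, had 144 and 107 CPM (-0.40). By complex, the median of the complex IV genes was 0.23 and that of the ATP synthase genes -0.10. None of these nuclear members was past 1.5-fold.

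Other measures differed between the same cells. The 10 genes of the dissociation response, such as Fos and Jun, summed to 234.8 CPM at E11.5 and 1047.8 CPM at E14.5. The nuclear RNAs Malat1, Neat1, Kcnq1ot1 and Meg3 summed to 15724 and 35819 CPM, and the 10 cell cycle genes to 3949.8 and 2718 CPM. Their part in the lower mitochondrial share was not tested.

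Between E14.5 and E16.5 the mitochondrial set was higher at the later stage in both main lineages, with a log2 ratio of 0.46 (0.45 to 0.47) in mesenchyme-like and 0.34 (0.34 to 0.35) in epithelium-like cells. The nuclear set had 0.069 (0.064 to 0.075) and 0.098 (0.091 to 0.10). For mesenchyme-like cells this small nuclear ratio turned to -0.038 in cells of 4000 to 8000 UMIs. In mesenchyme-like cells 2 of 81 nuclear members were past 1.5-fold higher (background 6.34% of 5617 genes) and 0 lower (1.99%). In epithelium-like cells 2 of 81 were higher (5.95% of 5668 genes) and 1 lower (1.68%). Both counts of higher members were below the background. In cells of 4000 to 8000 UMIs 6 and 5 nuclear members were past 1.5-fold, in place of 2 and 3. The share of all genes past 1.5-fold in those cells is not given, so these counts have no background beside them. The medians of the nuclear members, 0.056 and 0.12, stood beside 0.053 and 0.077 over all genes.

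In mesenchyme-like cells the 2 higher members were isoforms of complex IV subunits. Cox4i2, the alternative isoform of subunit 4, had 27.9 CPM at E14.5 and 69.6 CPM at E16.5 (1.07). Cox6b2 had 42.4 and 76.8 CPM (0.73). The general forms of the same subunits differed little, with 0.0073 for Cox4i1, at 1020 and 1025 CPM, and 0.062 for Cox6b1, at 521 and 544 CPM. The complex I subunits Ndufa1, at 156 and 224 CPM (0.50), and Ndufb4, at 199.6 and 275 CPM (0.45), came next without passing 1.5-fold. The lowest were the assembly factor Ndufaf2, with 266 and 197 CPM (-0.41), and the complex I subunit Ndufa12, with 274 and 211 CPM (-0.36). Atp5b, the catalytic beta subunit of the ATP synthase, had 469 and 383 CPM (-0.28).

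In epithelium-like cells the higher members were Ndufaf4, with 50.5 CPM at E14.5 and 85.4 CPM at E16.5 (0.66), and Ndufb1-ps, with 469 and 722 CPM (0.61). Ndufb1-ps is annotated by a pseudogene-style symbol and has the name of a small complex I subunit. The lower member was Ndufa4l2, a paralog of the complex IV-associated protein Ndufa4, with 43.2 and 25.3 CPM (-0.59). Ndufa1 (0.54), Ndufb4 (0.51) and Ndufa3 (0.49) stood next to the higher members, and all 3 were also among the 8 highest in mesenchyme-like cells. Atp5g1, a c subunit gene of the ATP synthase, had 669 and 541 CPM (-0.30).

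Of the mitochondrial members, 5 of 13 were past 1.5-fold higher in mesenchyme-like and 3 of 13 in epithelium-like cells, beside 6.34% and 5.95% of all genes. In either lineage 0 were lower, beside 1.99% and 1.68% of all genes. In mesenchyme-like cells mt-Nd3 had 271 CPM at E14.5 and 799 CPM at E16.5 (1.53), and mt-Nd4l had 329 and 782 CPM (1.22). In epithelium-like cells mt-Nd4l had 375 and 1012 CPM (1.41) and mt-Nd3 401 and 1020 CPM (1.32). The E14.5 cells also enter the comparison with E11.5, so these ratios and those given for the earlier step are not independent. Below 0, mt-Nd1 had -0.19 in mesenchyme-like and -0.29 in epithelium-like cells. The gene mt-Nd6, which is transcribed from the light strand, was at 0.09 and -0.50.

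Epithelium-like cells exceeded mesenchyme-like cells of the same stage in both sets. At E14.5 the log2 ratio was 0.15 (0.15 to 0.16) for the nuclear and 0.53 (0.52 to 0.53) for the mitochondrial set. At E16.5 it was 0.18 (0.18 to 0.19) and 0.41 (0.40 to 0.41). At E14.5, 2 of 81 nuclear members were past 1.5-fold higher (background 8.44% of 5417 genes) and 1 was lower (8.51%). At E16.5, 3 of 82 were higher (8.46% of 5947 genes) and 2 were lower (9.2%). In cells of 4000 to 8000 UMIs the E16.5 count of both directions was 10 in place of 5, without the share of all genes in those cells beside it. The nuclear members leaned to the epithelium-like side by small amounts, with 60 of 81 and 67 of 82 above 0, beside 52.4% and 57.5% of all genes. Their medians were 0.11 and 0.17, beside 0.017 and 0.058 over all genes.

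Genes of complex III were among the higher members. Uqcr11 had 580 CPM in epithelium-like and 296 CPM in mesenchyme-like cells at E14.5 (0.95), and 670.5 and 406 CPM at E16.5 (0.71). Uqcrc1, a core subunit of complex III, had 157 and 116 CPM at E14.5 (0.41) and 174 and 108 CPM at E16.5 (0.64). At E14.5 7 of 8 complex III genes were above 0, with a median of 0.22, and at E16.5 all 8, with 0.26. The other complexes leaned the same way. Complex IV had 13 of 14 (0.27) and 13 of 15 (0.23) above 0. The ATP synthase had 13 of 17 (0.15) and 15 of 17 (0.20), and complex I subunits 26 of 37 (0.076) and 28 of 37 (0.095). Complex III genes took 10.3% of the nuclear set's UMIs in epithelium-like cells at both stages, against 9.23% and 9.34% in mesenchyme-like cells. Uqcrq, another small subunit, had 0.45 and 0.42 without passing 1.5-fold.

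Other members with higher levels in epithelium-like cells held different ranks at the 2 stages. Ndufa4l2 had 43.2 CPM against 3.71 CPM in mesenchyme-like cells at E14.5 (1.96) and 25.3 against 15.6 CPM at E16.5 (0.47). Without the 26 pericyte-like cells described further on, which the mesenchyme-like cells of E16.5 include, the latter had 8.72 CPM and the log2 ratio was 0.92, with the mean level below the filter. Ndufaf4 had 85.4 against 44.3 CPM at E16.5 (0.81). Cox5b, a nuclear subunit of complex IV, had 598 against 400.4 CPM at E14.5 (0.57) and 628 against 458 CPM at E16.5 (0.45). Atp5b had 549 against 383 CPM at E16.5 (0.51).

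The members lower in epithelium-like cells were few. At E14.5 the lower member was Ndufaf2, which helps to assemble complex I, with 155 against 266 CPM (-0.74). At E16.5 they were Cox4i2, with 14.7 against 69.6 CPM (-1.69), and Cox6b2, with 31.7 against 76.8 CPM (-1.06). Cox6b2 had 26.5 against 42.4 CPM at E14.5 (-0.52), on the same side without passing 1.5-fold. Cox4i2 at E14.5, with 11.8 against 27.9 CPM, was below the filter on low genes.

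Of the mitochondrial members, 13 of 13 were above 0 at E14.5 and 12 of 13 at E16.5, beside 52.4% and 57.5% of all genes. Past 1.5-fold higher were 4 and 1 of them, beside 8.44% and 8.46% of all genes. At E16.5 the count is near that background. At E14.5 these were mt-Nd6, at 76.2 against 41.1 CPM (0.75), mt-Co1, at 3865 against 2392 CPM (0.69), mt-Co2 (0.68) and mt-Atp6 (0.60). The E16.5 member was mt-Atp6, which encodes a subunit of the proton channel, at 6166 against 4069 CPM (0.60). The exception was mt-Nd5, with 456 against 521 CPM at E16.5 (-0.19). The nuclear RNA list summed to 21842 CPM in epithelium-like against 35819 CPM in mesenchyme-like cells at E14.5 and to 20999 against 32724 CPM at E16.5. The dissociation list summed to 2112.8 against 1047.8 CPM and to 1287.4 against 1847 CPM. The part of these differences was not tested.

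Muscle-like cells of E11.5 (132 cells) were close to mesenchyme-like cells of that stage in both sets. The log2 ratio was 0.033 (0.017 to 0.049) for the nuclear set and -0.031 (-0.044 to -0.018) for the mitochondrial set. In cells of 4000 to 8000 UMIs both signs were turned, at -0.029 and 0.050. None of 80 nuclear members passed 1.5-fold in either direction, against 3.44% of 5696 genes each way. The highest were Uqcrfs1, with 189 against 144 CPM (0.36), and Cox8a, a complex IV subunit, with 1062 against 848 CPM (0.32). Ndufaf2 was lowest, with 201 against 247 CPM (-0.29). The heart and skeletal muscle isoforms Cox6a2 and Cox8b had 0 UMIs in these cells, which allows up to 2.67 CPM, and Cox7a1 had 1 UMI. The cluster also raised 6 of 10 epithelial markers, whose part was not tested.

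**Figure D2:**
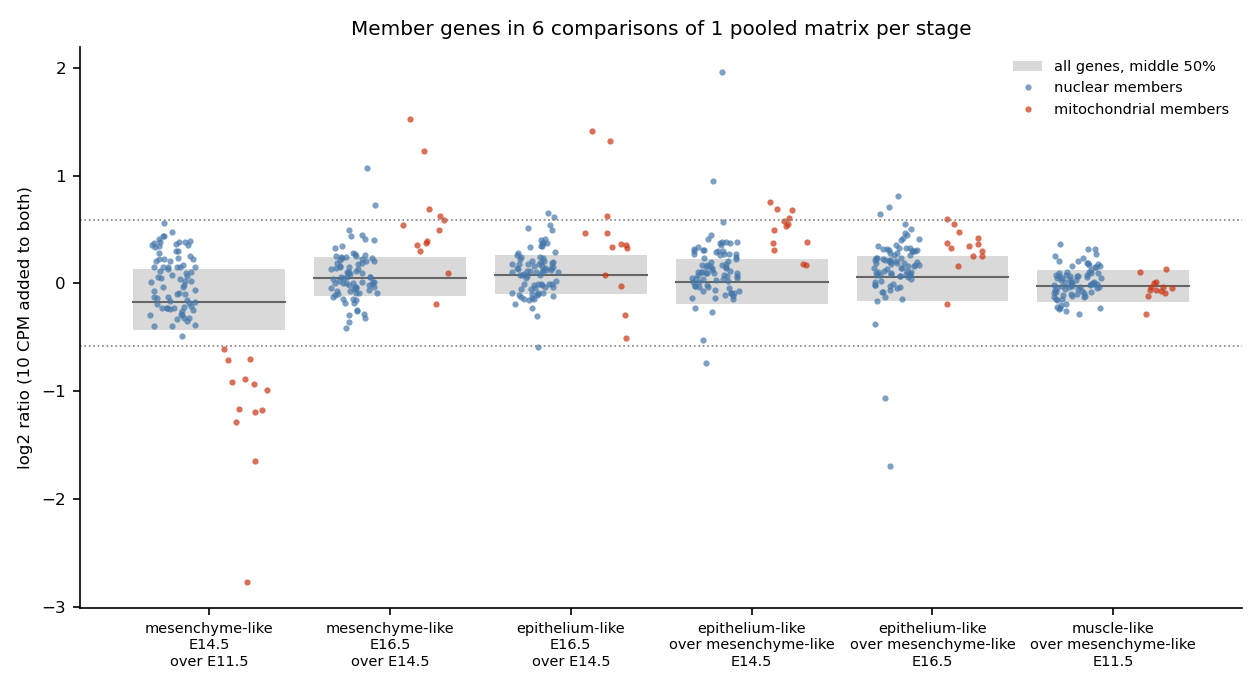
Log2 ratio (10 CPM added) of every member that passed the filter in the 6 comparisons, with nuclear and mitochondrial members apart. Grey boxes hold the middle 50% of all genes with their median as a dark line, and dotted lines mark 1.5-fold. The mitochondrial members lie below the nuclear members from E11.5 to E14.5 in mesenchyme-like cells, where 13 of 13 are past the lower line.

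The immune-like cells were compared with mesenchyme-like cells of E14.5 because of their high nuclear share, a choice made with the data in view. The nuclear set had a log2 ratio of 0.67 (0.66 to 0.68) and the mitochondrial set 0.26 (0.24 to 0.28). Of 81 nuclear members, 42 were past 1.5-fold higher, against 18.0% of 5261 genes, and 2 lower, against 25.9%. Their median was 0.62, beside -0.13 over all genes, and 78 of 81 were above 0, beside 2249 of the 5261 genes. The count of higher members rested on the 31 cells with osteoclast genes. Without them 16 of 81 were higher, against 16.9% of 5271 genes, 2 were lower, against 24.7%, and the log2 ratio of the set was 0.33 (0.31 to 0.35). The 135 cells were the deepest named group of that stage, with a median of 6805 UMIs. The nuclear RNA list summed to 18430 CPM in them against 35819 CPM, and the dissociation list to 2116.1 against 1047.8 CPM, and the part of these was not tested.

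Over all 135 immune-like cells, members of all complexes were higher, and the median was highest for complex III. Of the complex III genes 6 of 8 were past 1.5-fold higher, with a median of 1.08, and of the complex IV genes 10 of 13, with 0.73. Of the ATP synthase genes 8 of 17 were higher (0.56) and of the complex I subunits 16 of 37 (0.52). The background was 18.0% of 5261 genes. These counts include the 31 cells with osteoclast genes, and no count by complex is given without them. Uqcr11 had 1014 CPM against 296 CPM (1.74), the largest ratio of the nuclear members, and 645 CPM (1.10) without the 31 cells. Uqcrfs1 had 264 against 107 CPM (1.23), Cox5b 948 against 400.4 CPM (1.22) and Uqcr10, a small complex III subunit, 1101 against 487 CPM (1.16). The lower members were Cox6b2, with 7.12 against 42.4 CPM (-1.61), and Ndufaf2, with 152 against 266 CPM (-0.77). Of the mitochondrial members, mt-Co1 was past 1.5-fold higher, with 4009 against 2392 CPM (0.74).

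Pericyte-like cells of E16.5 (26 cells) came from clustering at the finer resolution and were compared, after the data were seen, with mesenchyme-like cells of that clustering. The nuclear set had a log2 ratio of 0.38 (0.35 to 0.40) and the mitochondrial set -0.11 (-0.15 to -0.078). Of 82 nuclear members 14 were past 1.5-fold higher, against 13.8% of 5660 genes, and 2 lower, against 15.8%. The paralogs of subunits were the extremes. Ndufa4l2 had 523 CPM against 8.62 CPM (4.84) and was counted in 25 of 26 cells. It was among the 10 genes that led this cluster, so its level describes the cluster. Its counterpart Ndufa4 was lowest, with 297 against 702 CPM (-1.21). Cox4i2 had 337 against 65.9 CPM (2.19) and was counted in 23 of 26 cells. Cox6b2, with 39.6 against 77.3 CPM (-0.81), was also lower.

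Within the epithelium-like cells of E16.5, the cluster with the highest level of the ameloblast gene Odam (471 cells, 62.8 CPM) was compared with the cluster that Shh led (402 cells, Odam at 0.513 CPM). Odam, Shh and this comparison were chosen after the values were seen, and the clusters come from the finer resolution. The nuclear set took 3.76% against 2.97% of UMIs, a log2 ratio of 0.34 (0.33 to 0.35), while the mitochondrial set took 4.16% against 4.22% (-0.021, interval -0.031 to -0.012). Of 81 nuclear members, 7 were past 1.5-fold higher (background 5.78% of 6003 genes) and 1 lower (6.41%). Above 0 were 78 of them, beside 3032 of the 6003 genes. Median depths were alike, at 5940 and 6353.5 UMIs.

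The 7 higher members belonged to complexes III and IV and to the ATP synthase. Cox8a had 1421 against 862 CPM (0.72), Atp5g3 364 against 218 CPM (0.71), Atp5b 682 against 418 CPM (0.69) and Atp5o 519 against 319.9 CPM (0.68). Uqcr10 (0.64), Cox5b (0.63) and Uqcr11 (0.60) completed them. The assembly factor Ndufaf4 went the other way, with 57.5 against 104 CPM (-0.76). Ppargc1a, a coactivator of mitochondrial genes, had 105 CPM in the cluster with high Odam and 3.85 CPM in the Shh-led cluster. The other epithelium-like clusters held 3.65% (689 cells) and 2.88% (192 cells) of UMIs in the nuclear set.

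The isoforms of complex IV subunits showed the sharpest patterns over lineages. Cox4i2 (2:152754173-152765037) had 4.97 CPM (4.33 to 5.67), 27.9 CPM (25.5 to 30.4) and 69.6 CPM (65.9 to 73.5) in mesenchyme-like cells from E11.5 to E16.5. Its intervals did not overlap between stages, but differences beyond counting error were common in these cells. From E11.5 to E14.5 the interval of the log2 ratio lay above 0 for 1563 and below 0 for 3220 of 5579 genes. From E14.5 to E16.5 it did so for 2377 and 1513 of 5617 genes. The share of cells with a UMI of Cox4i2 followed the same order as its level. That share was 3.40%, 9.14% and 30.3%, and after thinning every cell to 2000 UMIs 1.12%, 4.50% and 12.1%. In immune-like cells of E14.5 it was 2.22%, from 3 UMIs at a median depth of 6805 UMIs, close to the unthinned E11.5 share. Whether either share is a background level was not tested. At E11.5 the level was uneven, with 12.995 CPM in the cluster led by Msx1 (named after its values were seen) and 1.69 to 2.78 CPM in the other mesenchyme-like clusters. Endothelium-like cells had 3.63 and 5.26 CPM, so pericyte-like and endothelium-like cells, both of vessels, were far apart.

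Ndufa4l2 (10:127514967-127517154) had 1 UMI in all mesenchyme-like cells of E11.5. It had 3.71 CPM at E14.5 and 15.6 CPM at E16.5 in these cells, the latter 8.72 CPM without the 26 pericyte-like cells, and 43.2 and 25.3 CPM in epithelium-like cells. At E16.5 the mesenchyme-like clusters held 0.780, 40.3 and 8.21 CPM, so the level was uneven within the lineage. Endothelium-like cells had 0 UMIs at E14.5, which allows up to 3.63 CPM, and 13.1 CPM at E16.5. In epithelium-like cells 13.4% and 13.5% of cells had a UMI, and 7.79% and 4.97% after thinning.

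Cox6b2 (7:4751792-4753094) had 27.5, 42.4 and 76.8 CPM in mesenchyme-like cells in the order of ages. Erythroid-like cells had 76.2 CPM at E11.5 and 50.2 CPM at E14.5, and the hemoglobin-rich cells of E16.5 had 57.8 CPM, although hemoglobin took over 30% of their UMIs. Immune-like cells were lowest, at 7.12 and 6.97 CPM. Both values rest on few counts, with 7 UMIs at E14.5 and 26 cells of 286980 UMIs in all at E16.5. The gene was thus low in the cells with the highest pooled nuclear share.

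Cox7a1 (7:30184144-30186078), the heart and skeletal muscle form of subunit 7a, was highest in immune-like cells. It had 22.4 CPM at E14.5 and 76.7 CPM at E16.5, from 22 UMIs at each stage. Of these UMIs, 17 at E14.5 came from the 31 cells with osteoclast genes and 18 at E16.5 from 5 such cells. The other immune-like cells had 7.38 and 18.8 CPM. Mesenchyme-like cells had 0.479, 0.169 and 1.32 CPM and epithelium-like cells 1.13 and 5.17 CPM. The unnamed cluster of E11.5 in which endothelial and immune markers met had 7.29 CPM. The other restricted isoforms were near absent, with 1 UMI each of Cox6a2 at E11.5 and E14.5, 1 UMI of Cox8c at E11.5 and 0 UMIs of Cox8b at any stage. The plot of isoform levels shows these orders.

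**Figure D3:**
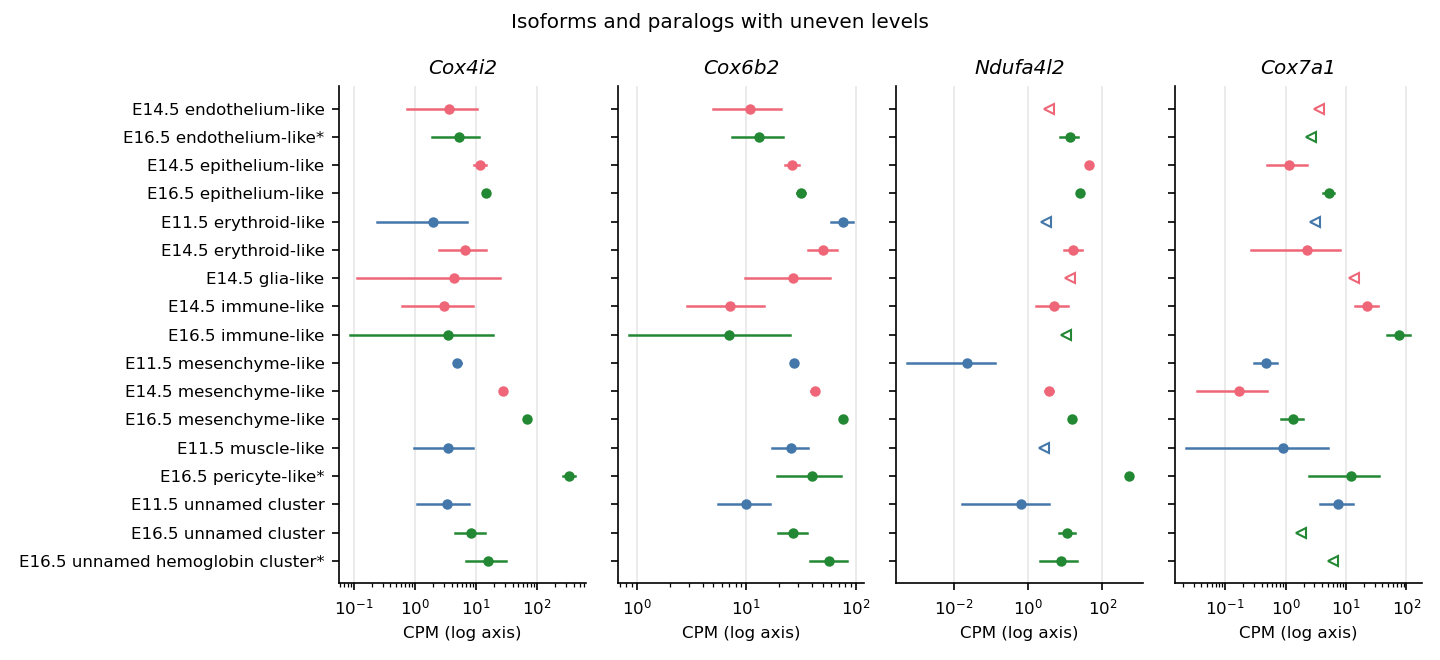
Levels of Cox4i2, Cox6b2, Ndufa4l2 and Cox7a1 in CPM (log axis) by lineage and stage, with exact Poisson 95% intervals. Open triangles are groups with 0 UMIs, drawn at the level of 3 counts. Cox4i2 is highest in pericyte-like and E16.5 mesenchyme-like cells, Cox7a1 in immune-like cells and Cox6b2 is lowest in immune-like cells. Most Cox7a1 UMIs of the immune-like cells came from those with osteoclast genes.

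The make-up of the mitochondrial set differed between stages for some genes and overlapped for others. The complex IV genes took 46.4%, 47.4% and 45.3% of the mitochondrial members' UMIs in mesenchyme-like cells from E11.5 to E16.5. Complex I genes took 29.0%, 27.6% and 27.3%, and mt-Cytb 9.54%, 11.8% and 12.5%. The gene mt-Nd3 took 4.27 to 5.16% over the 3 named lineages of E11.5, 0.997 to 1.52% over the 6 of E14.5 and 2.22 to 2.83% over the 4 of E16.5. It was the member whose ranges did not overlap in any pair of stages. The 4 lineages of E16.5 include endothelium-like cells of the finer resolution and leave out the pericyte-like cells of that resolution. For mt-Cytb, mt-Nd4 and mt-Nd4l the ranges were apart in 2 of 3 pairs, and for mt-Atp6, mt-Co2, mt-Nd1, mt-Nd2 and mt-Nd6 in 1. For mt-Atp8, mt-Co1, mt-Co3 and mt-Nd5 they overlapped in every pair. Lineages of a stage also differed, for example from 10.1 to 15.1% for mt-Co1 at E16.5. No such count was made for genes outside the set, so it is not known whether such separation is particular to these members.

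Within a stage, immune-like cells had the highest share of mt-Co1, with 16.3% (E14.5) and 15.1% (E16.5). The light-strand gene mt-Nd6 had the lowest share of counted UMIs, with 0.0862 to 0.289% over the same lineages and stages. Whether its message is captured as well as the others was not tested. Lineages of a stage come from the same pooled matrix, so their agreement is not replication. The genes mt-Atp8 and mt-Atp6 overlap by 43 bases, mt-Nd4l and mt-Nd4 by 7, and mt-Atp6 and mt-Co3 by 1. Whether such neighbours are counted from separate messages was not tested. In a gene release other than the one counted on, 19 of the 103 members overlap some gene model on their strand. Several of these models are of small RNAs, such as Mir6900 over Ndufa10 and mt-Ti over mt-Nd1. How reads in the overlaps were counted was not tested.

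**Figure D4:**
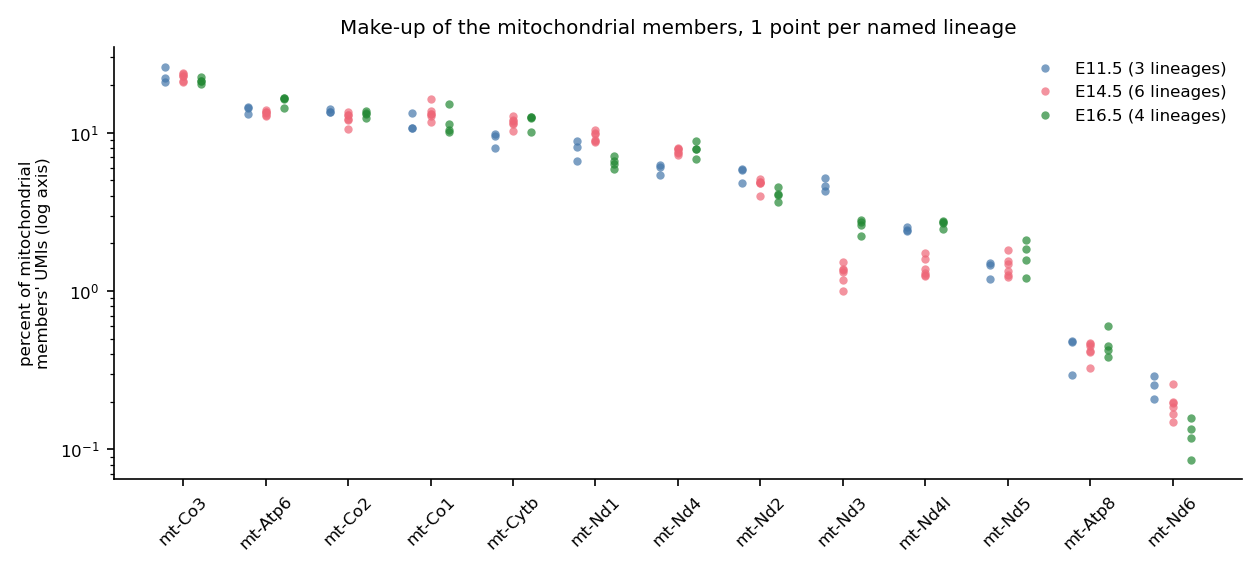
Percent of the mitochondrial members' UMIs taken by each of the 13 genes (log axis) in the named lineages of the 3 stages. Each point is 1 lineage (3, 6 and 4 lineages in order of age). Those of E16.5 include endothelium-like cells of the finer resolution and leave out pericyte-like cells. The points of mt-Nd3 form separate groups by stage, at 4.27 to 5.16%, 0.997 to 1.52% and 2.22 to 2.83%. Lineages of a stage come from 1 pooled matrix, and genes outside the set were not compared in this way.

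Within a lineage, the mitochondrial share was highest in the shallowest cells and the nuclear share varied less with depth. Mesenchyme-like cells of E11.5 had mitochondrial shares of 10.3% below 2000 UMIs and 3.78% from 8000 UMIs on. In those of E14.5 the values were 2.91% and 1.73%. Epithelium-like cells of E14.5 had 6.47% and 2.77%, and those of E16.5 had 6.41% and 3.49%. In the bin from 4000 to under 8000 UMIs, mesenchyme-like cells had 3.92%, 1.95% and 2.92% from E11.5 to E16.5, so the order of stages was the same at matched depth. The nuclear share of mesenchyme-like cells in this bin was 2.92%, 3.02% and 2.94%.

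Across cells, Spearman's correlation of the nuclear with the mitochondrial share was 0.019 in 4616 mesenchyme-like cells of E14.5. In the 6111 of E11.5 it was -0.078, but 0.13 in the 5000 cells without the shallow cluster and -0.34 within that cluster. It was -0.23 in 2568 E16.5 mesenchyme-like cells. In epithelium-like cells it was -0.39 at E14.5 and -0.31 at E16.5. Cells of a stage share their pooled matrix, and both shares have the same total as denominator. Among the mesenchyme-like clusters of E14.5 the nuclear share ran from 2.37%, in a cluster with a median of 2460 UMIs and 62033 CPM of the nuclear RNA list, to 3.23%, in a cluster with 5257.5 UMIs and 19034 CPM. The part of depth and nuclear RNA in this spread was not tested.

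**Figure D5:**
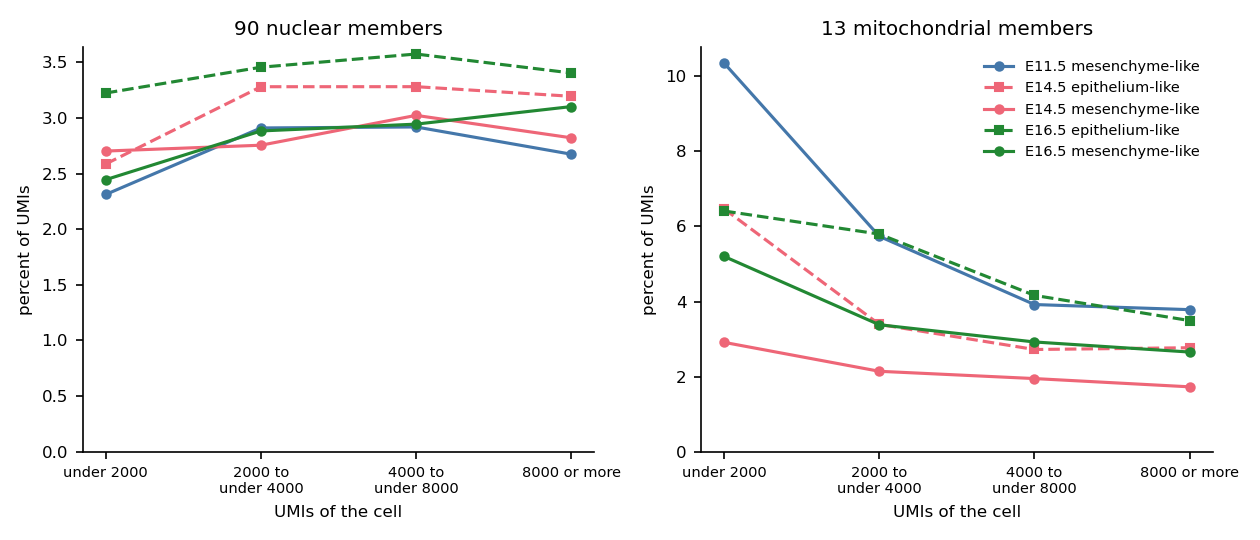
Percent of UMIs from the nuclear and the mitochondrial members against the depth of the cells in 4 bins, for mesenchyme-like cells of the 3 stages and epithelium-like cells of both later stages. The mitochondrial share is highest below 2000 UMIs in all 5 groups, at 10.3% in E11.5 mesenchyme-like cells, and the nuclear share stays between 2.31% and 3.57%.

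Other genes of mitochondrial function were described from lists that were chosen with earlier results of these data known. From E11.5 to E14.5 in mesenchyme-like cells, the 4 complex II genes had a median of -0.19 and the 16 genes of the tricarboxylic acid cycle -0.12, with 0 past 1.5-fold. The 6 genes of mitochondrial DNA expression that passed the filter had a median of -0.51, beside -0.17 over all genes. Of all 5579 genes, 463 were past 1.5-fold higher and 811 lower over this step. Of the 6 genes, 3 were lower. These were Ssbp1, which binds single-stranded mitochondrial DNA (239 and 145 CPM), Lrpprc, which stabilizes mitochondrial messages (34.6 and 18.5 CPM), and Pnpt1, a mitochondrial RNA exonuclease (49.2 and 18.2 CPM). Of 76 genes of the mitochondrial ribosome 0 were higher and 1 lower. Of 7 regulators of mitochondrial genes Gabpb1 was lower. Of 15 listed assembly factors outside the members Cox14 and Cox20 were higher and Coa7 was lower. From E14.5 to E16.5 in mesenchyme-like cells 1 of 13 such assembly factors, Pet100, was higher, beside 6.34% of all genes. The other lists named here held no called gene over that step in these cells. In epithelium-like cells Lrpprc (17.4 and 34.9 CPM) and Pnpt1 (14.3 and 32.3 CPM), 2 of 7 genes of their list, were past 1.5-fold higher over that step. Sdhd, a membrane subunit of complex II (35.7 and 62.6 CPM), Pdha1 of pyruvate dehydrogenase (53.7 and 86.9 CPM) and Ppargc1a (14.3 and 33.7 CPM) were so too. They were 1 of 4 complex II genes, 1 of 16 genes of the tricarboxylic acid cycle and 1 of 8 regulators of mitochondrial genes. The background was 5.95% of 5668 genes, and 0 of 77 genes of the mitochondrial ribosome were called.

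At E16.5 Ppargc1a had 33.7 CPM in epithelium-like and 6.76 CPM in mesenchyme-like cells (1.38). Citrate synthase, Cs, had 78.9 against 45.5 CPM (0.68) and Idh3a 65.0 against 38.5 CPM (0.63). Past 1.5-fold higher were thus 1 of 8 regulators and 2 of 16 genes of the tricarboxylic acid cycle, beside 8.46% of all genes. Of the mitochondrial ribosome 1 of 76 genes, Mrpl44, was higher. Nfe2l2, a regulator of antioxidant genes, was lower in epithelium-like cells, with 27.0 against 75.9 CPM (-1.21), and likewise at E14.5, with 35.4 against 81.2 CPM (-1.01). At E14.5 Suclg2, a subunit of succinyl-CoA ligase, had 112 against 57.2 CPM (0.86). It was 1 of 16 genes of the tricarboxylic acid cycle, beside 8.44% of all genes higher. Of 13 listed assembly factors outside the members 1, Cox20, was lower, beside 8.51% of all genes. In muscle-like against mesenchyme-like cells of E11.5 none of the pathway lists held a called gene.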

How the data were processed

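Single cells of mouse mandibles and incisor buds were sequenced on 10x Chromium 3' v3 libraries. The deposited values are UMI counts per gene and barcode, not normalized, which the authors made with Cell Ranger 4.0.0 on mm10, per the submitters' processing notes. Gene and barcode names deposited beside the counts are text and were used as names.

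From the counts, the filter of the study (700 or more genes, no more than 20% mitochondrial UMIs) was applied to the cells, which left 864 to 123785 UMIs per cell. Within each stage the counts were transformed with SCTransform (sctransform 0.4.2, Seurat 5.3.0, R 4.3.3), reduced to 20 principal components of 2000 variable genes without the members, and clustered with Leiden (leidenbase 0.1.32) at resolution 0.4, or 0.8 where stated. A cluster was named from marker lists where at least 3 markers of 1 class were raised by a log2 ratio of 1 over a low reference among the clusters of the stage. This reference was the 25th percentile at first and was set to the 10th percentile after the names had been seen. Clusters in which 2 classes were alike stayed unnamed. The members and lists were chosen with earlier results of these data known.

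The UMIs of a group of cells were added up and scaled to CPM. Gene ratios had 10 CPM added, and 1.5-fold was the limit for a call. Because each stage is 1 pooled sample, no p-value was computed. Set ratios have exact conditional intervals, levels exact Poisson and shares Clopper-Pearson intervals, all at 95% and for counting error only. Zero counts are given with the limit of 3 counts. Named in the text are the mitochondrial members, the paired isoforms, and, of the 8 highest and 8 lowest nuclear members of each comparison, those the results turn on; 1 such member is not reported here. Comparisons of immune-like, pericyte-like and Odam-rich cells were added after the data were seen. Scrublet (scanpy 1.11.5) called 0, 0 and 2 doublets, so no cell was removed, and leaving out the top 5% of scores was tried instead. Further work was done with scipy 1.17.1, numpy 2.4.6 and python 3.11.15, and the calls were tested on simulated data. Gene positions are from GENCODE vM21 on GRCm38, a release other than the one counted on. Alternatives changed the filter on cells, the resolution, depth, denominator, CPM added, low-gene filter and fold.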

Additional observations from a re-analysis of the deposited data

Results flagged for a closer look

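Barcodes that the filter on cells left out enter no comparison, and the mitochondrial members were counted in them at every stage. They took 15.4% of the UMIs of 2135 such barcodes at E11.5, 1.51% of those of 2101 barcodes at E14.5 and 1.81% of those of 1208 barcodes at E16.5. The median depth of these barcodes was 737, 1037 and 1033 UMIs. The nuclear members took 1.97%, 0.898% and 0.995%. The E11.5 value stood above the 4.14% of the kept mesenchyme-like cells, while those of E14.5 and E16.5 stood below the 2.05% and 2.83% of theirs. At E11.5, 797 barcodes exceeded 20% mitochondrial UMIs, against 40 and 104 at the later stages. Of these, 63, 5 and 10 had 700 or more genes, so the filter left them out for that share alone. The other left-out barcodes, 2072, 2096 and 1198, had fewer than 700 genes. The part of the limit on mitochondrial UMIs in the share of the left-out barcodes was not tested.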

How the results depend on the processing

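No paired analysis was possible because each stage was deposited as 1 pooled matrix and no test between groups was made, and no sample could be left out. Values are log2 ratios of a set. With at least 200 genes and no mitochondrial limit, the mitochondrial set had -1.03 for mesenchyme E14.5 over E11.5, 0.40 for mesenchyme and 0.30 for epithelium E16.5 over E14.5, 0.44 for epithelium over mesenchyme at E16.5 and -0.098 for muscle. The nuclear set had 0.076, 0.11 and 0.066 for mesenchyme E16.5 over E14.5, epithelium E16.5 over E14.5 and muscle. With 1000 or more genes and no more than 10% mitochondrial UMIs, the mitochondrial set had -0.98, 0.49, 0.36, 0.47, 0.34 and 0.034 over the 6 comparisons in the order of the report, the last of opposite sign, and the nuclear set 0.062 for mesenchyme E16.5 over E14.5 and 0.19 for epithelium over mesenchyme at E16.5. At resolution 0.8 these latter were 0.063 and 0.19. Without the top doublet scores the mitochondrial set of epithelium over mesenchyme was 0.55 and 0.42.

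In cells of 4000 to 8000 UMIs the nuclear set had 0.051, -0.038, 0.12, 0.12, 0.28 and -0.029 over the 6 comparisons, of which the second and the last turned sign, and the mitochondrial set 0.59, 0.61, 0.48, 0.51 and 0.050 over the last 5, the last turned. Called nuclear members numbered 6 and 5 for E16.5 over E14.5 and 10 for epithelium over mesenchyme at E16.5. With mitochondrial UMIs left out of the denominator the nuclear set had 0.027, 0.081, 0.11, 0.17 and 0.20. The count of called nuclear members for mesenchyme E14.5 over E11.5 was 2 with 1 CPM added and 1 with a mean of at least 1 CPM. At 2-fold, counts were 1, 0, 1 and 2 for the 4 comparisons that followed. None of the counts of called members in this paragraph has the share of all genes at that setting beside it. Without the shallow E11.5 cluster, chosen after seeing the data, the nuclear set had 0.044, the mitochondrial set -0.91, and that of muscle 0.074, of opposite sign. Leaving out the pericyte-like cells, and the immune-like cells with osteoclast genes, was also chosen after seeing the data, and its values stand in the report. The cause was not tested. No gene value turned sign, and in the 4 alternatives that had any, 1 to 4 fell short of 1.5-fold.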

Other observations

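Within the immune-like cells, the nuclear share was uneven. Cells with at least 20 UMIs of Ctsk and Acp5 together, genes of bone-resorbing osteoclasts chosen after their values were seen, numbered 31 of 135 at E14.5. In these cells the nuclear members took 6.71% of UMIs (1.78 to 10.2% in single cells), against 3.62% (0.620 to 7.998%) in the other 104 cells. The mitochondrial members took 2.49% and 2.45%. The cells with the osteoclast genes were deeper, with a median of 9454 against 6213.5 UMIs, and the part of depth was not tested. Cox7a1 had 55.7 against 7.38 CPM and Cox8a 3172 against 1604 CPM. At E16.5 there were 5 such cells, with nuclear shares of 5.85 to 11.2%, and in the other 21 cells the nuclear members took 3.56% of UMIs. Cox7a1 had 242 against 18.8 CPM there. Cells with 10 to 39 UMIs of the pair, near the limit, numbered 25 and 2. All cells of a stage come from the same pooled sample.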
